A study of Mus musculus with 12 samples.

Results

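Immunity-related GTPases (IRG) were followed in mouse regulatory T cells (Treg) with and without the transcription factor Ikaros, before and after activation. The members were the 10 genes of the family listed by name in the expression table, Irgm1, Irgm2, Igtp, Iigp1, Gm4951, Gm5970, Tgtp1, Tgtp2, Gm12250 and Ifi47, out of 36222 genes in all. Each name belonged to a single gene identifier. The 12 RNA libraries formed 4 groups of 3. Per the labels, all cells were splenic CD4+ Treg sorted for YFP, the fluorescent reporter of a Cre expressed from Foxp3, so every group carried this Cre and only cells in which Foxp3 had been active were collected. The WT mice carried Foxp3-YFP-Cre alone, and the cKO mice combined it with floxed Ikzf1, the gene of Ikaros, on the B6 background at 6 to 8 weeks of age. Cells were taken either directly (ex vivo) or after 4 h on immobilised antibodies against CD3 and CD28, each at 1 µg/ml (stimulated).

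IRG proteins are large GTPases that interferon gamma induces in mouse cells. Effector members, such as Irga6 (Iigp1), Irgb6 (Tgtp1 and Tgtp2), Irgb10 (Gm12250) and Irgd (Ifi47), load onto the vacuoles of intracellular parasites and bacteria and break them. The regulatory members Irgm1, Irgm2 and Irgm3 (Igtp) sit on the membranes of the host cell and hold the effectors there in the inactive state, and Irgm1 is also known for its part in autophagy and in T cell survival. Interferon gamma acts through its receptor and the kinases Jak1 and Jak2, and its target promoters often hold the gamma-activated sequence (GAS), while interferon regulatory factors (IRF) bind the interferon-stimulated response element (ISRE).

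The upstream sequences of family members on chromosome 11 show the letters that these interferon factors read. RefSeq (GRCm38.p6) gave an upstream window for 7 of the 10 members, and Iigp1, Gm4951 and Gm5970 had no entry. The 250 bases before each start were searched on both strands for GAS (TTCNNNGAA), an ISRE-like motif (GAAANNGAA) and the Ikaros core (GGGAA). The 6 windows with a GAS or an ISRE-like match are printed over their last 100 bases, 5′ to 3′ on the strand of the gene, with those matches in capitals, because they show where the letters lie and that 4 of them share one arrangement. They come from chr11:48992247-48992346 (minus strand) for Tgtp1, chr11:49064213-49064312 (minus) for Tgtp2, chr11:58199456-58199555 (plus) for Igtp, chr11:58214877-58214976 (plus) for Irgm2, chr11:58183743-58183842 (plus) for Gm12250 and chr11:48871421-48871520 (minus) for Irgm1.
Tgtp1: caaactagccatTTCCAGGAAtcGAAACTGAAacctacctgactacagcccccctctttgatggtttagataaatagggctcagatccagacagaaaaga
Tgtp2: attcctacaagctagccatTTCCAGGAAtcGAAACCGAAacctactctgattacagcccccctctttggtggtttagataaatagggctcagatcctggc
Igtp: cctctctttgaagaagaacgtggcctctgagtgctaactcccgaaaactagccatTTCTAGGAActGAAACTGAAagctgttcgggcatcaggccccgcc
Irgm2: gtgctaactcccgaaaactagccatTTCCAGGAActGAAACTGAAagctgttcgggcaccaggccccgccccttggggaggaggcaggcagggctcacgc
Gm12250: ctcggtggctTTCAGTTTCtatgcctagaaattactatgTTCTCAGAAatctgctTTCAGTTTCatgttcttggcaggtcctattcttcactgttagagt
Irgm1: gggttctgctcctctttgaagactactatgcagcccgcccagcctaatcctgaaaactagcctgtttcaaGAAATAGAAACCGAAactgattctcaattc

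GAS letters stood in 5 of the 7 windows, against 7.0% of the 32851 windows of the same length in the table. ISRE-like letters stood in 6 of 7, against 7.1% of all windows. The Ikaros core, a short and common run of letters, stood in 2 of 7 (Irgm2 and Tgtp1), against 56.2%. In Tgtp1, Tgtp2, Igtp and Irgm2 the GAS was followed on the same strand, after 2 bases, by the ISRE-like match. This pair was looked for after the windows had been seen, and 7 of the 32851 windows hold it (0.0213%). The others that hold it belong to Gm12185, LOC115488470 and Olfr382. Around the pair the Tgtp1 and Tgtp2 windows are near copies of each other, as are those of Igtp and Irgm2. The counts of windows above therefore do not come from separate sequences. The GAS of Igtp ran from base -45 to base -37 before the start and its ISRE-like match from -34 to -26, and in Tgtp1 the same pair lay from -88 to -69. Irgm1 had ISRE-like letters only, from -30 to -16, where a pair of matches overlap. Ifi47 had none of the 3 motifs in its window. These matches describe letters, not binding.

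**Figure D1:**
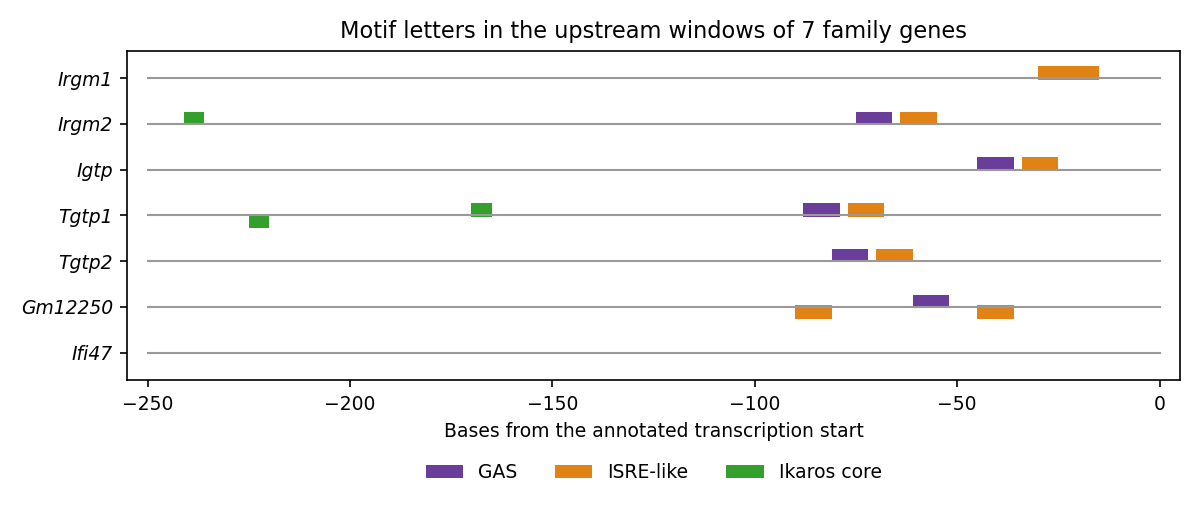
Positions of the GAS, ISRE-like and Ikaros core letters in the 250 bases before the annotated start of 7 family genes, in bases from the start; boxes above a line are on the strand of the gene and boxes below it on the other strand. The GAS and ISRE-like boxes of Tgtp1, Tgtp2, Igtp and Irgm2 sit 2 bases apart, and Ifi47 has no box.

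The genes lie in 3 clusters of build mm9. On chromosome 11, Irgm1 (48675470 to 48685185, minus strand), Tgtp1 (48798829 to 48807674, minus strand), Tgtp2 (48870696 to 48877708, minus strand) and Ifi47 (48890089 to 48910476, plus strand) share 235.0 kb. Further along the same chromosome, Gm12250 (57997345 to 58003700), Igtp (58013058 to 58021093) and Irgm2 (58028530 to 58036282) stand within 38.9 kb, all on the plus strand. The third cluster, 180.5 kb on chromosome 18, holds Gm4951 (60371734 to 60407474), Gm5970 (60380497 to 60381712) and Iigp1 (60535683 to 60552281), also on the plus strand. Gm5970, an annotated pseudogene, lies wholly in intron 2 of Gm4951 on the same strand and shares 0 exonic bases with it, so in total RNA a read from unspliced Gm4951 cannot be told apart from a Gm5970 read. Tgtp1 and Tgtp2 are near copies, with 99.7% identity over their 1248 coding bases, and 80.73% of the 51-base windows of Tgtp1 exons occur elsewhere in the family, against 87.34% of those of Tgtp2. The split of reads between these copies is therefore uncertain, and their sum is given where it matters. If reads that match both copies were not counted, the levels of both genes, and every sum that holds them, are understated. Gm12250 is also annotated as a pseudogene in the mm9 annotation used here, which gives it no coding sequence. The remaining protein-coding members are further apart in sequence, from 60.0% identity (Irgm2 and Gm4951) to 88.0% (Iigp1 and Gm4951).

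The depth was 8208659 to 20247649 assigned reads per library, lowest in the cKO stimulated group (8208659 to 10930376). A single gene model, Gm10800, took 17.65 to 55.88% of a library's total, most in the cKO stimulated group, so values were rescaled between libraries before testing. Ikzf1, the targeted gene, was at 83.8 to 125 TPM (a level per transcript length, scaled to 1000000 per library) in WT and 38.8 to 44.3 in cKO cells ex vivo. After stimulation WT cells had 66.4 to 83.4 TPM and cKO cells 17.0 to 31.6, lower in every cKO library than in every WT library of the same condition. Its change was -1.52 (log2, SE 0.11, limma adjusted p 5.45e-05) ex vivo and -1.29 (SE 0.11, adjusted p 0.000161) after stimulation. With no filter on low levels the ex vivo limma adjusted p was 0.0547. The sorted identity was checked by Foxp3 (82.7 to 253 TPM over all libraries) and 6 other Treg and CD4 markers, whose sum was 912 to 2455 TPM. Defining markers of other cells were set beside 1248 olfactory receptor genes, which are silent in T cells and had medians of 0.734 to 1.05 TPM per group with a 95th percentile of 1.59 to 2.13. Cd8b1, a chain of CD8, stood above that at 7.22 to 12.8 TPM over all libraries, and Cd79b, a chain of the B cell receptor complex, at 4.72 to 7.65 TPM in WT and 11.6 to 12.1 in cKO ex vivo. The 5 B cell markers summed, ex vivo, to 11.6 to 14.9 TPM (WT) and 18.6 to 25.8 (cKO), and, stimulated, to 11.7 to 16.9 (WT) and 15.6 to 20.7 (cKO). The 6 myeloid markers in the table summed to 9.45 to 13.9, 10.2 to 17.2, 14.3 to 19.2 and 13.7 to 22.6 TPM in the same order of groups. Over all libraries the 3 NK markers summed to 5.62 to 9.55 TPM, the 2 CD8 T cell markers to 8.84 to 16.3 and the 3 erythroid markers to 1.16 to 5.58, and 1 erythroid marker was at 0 in all WT stimulated libraries. The part of such cells in the results was not tested.

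WT Treg taken ex vivo already expressed the family, led by a regulatory member. Igtp stood highest at 62.3 ± 7.86 TPM (SD, n = 3), followed by Ifi47 at 46.1 ± 7.75, and the ranges of these 2 genes overlapped. Iigp1 came next at 18.9 ± 2.54, then Irgm1 at 13.9 ± 1.41 and Irgm2 at 11.3 ± 1.38, each apart from its neighbour in every library. Tgtp2 (8.60 ± 0.70) and Gm12250 (8.55 ± 1.05) did not separate, and Tgtp1 followed at 4.49 ± 0.61. Gm4951 (2.69 ± 0.61) and Gm5970 (1.90 ± 0.26) were lowest, with overlapping ranges not far above the olfactory receptor genes. Over all members the summed level ex vivo was 179 ± 19.0 TPM for WT and 207 ± 25.8 for cKO, and the stimulated cells had 338 ± 117 (WT) and 736 ± 178 (cKO).

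The order changed with activation and genotype. Irgm2 moved from the fifth place in WT ex vivo to the third in WT stimulated (54.6 ± 14.1 TPM), where its range overlapped those of Ifi47 and Iigp1. In cKO stimulated cells Igtp remained first at 235 ± 56.1 TPM, and Iigp1 took the second place at 157 ± 41.7, although the ranges of these neighbours overlapped. Gm5970, last in WT stimulated at 3.60 ± 1.62 TPM, ranked above Tgtp2, Gm4951 and Tgtp1 in cKO stimulated at 25.5 ± 7.59, again with ranges that overlapped.

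**Figure D2:**
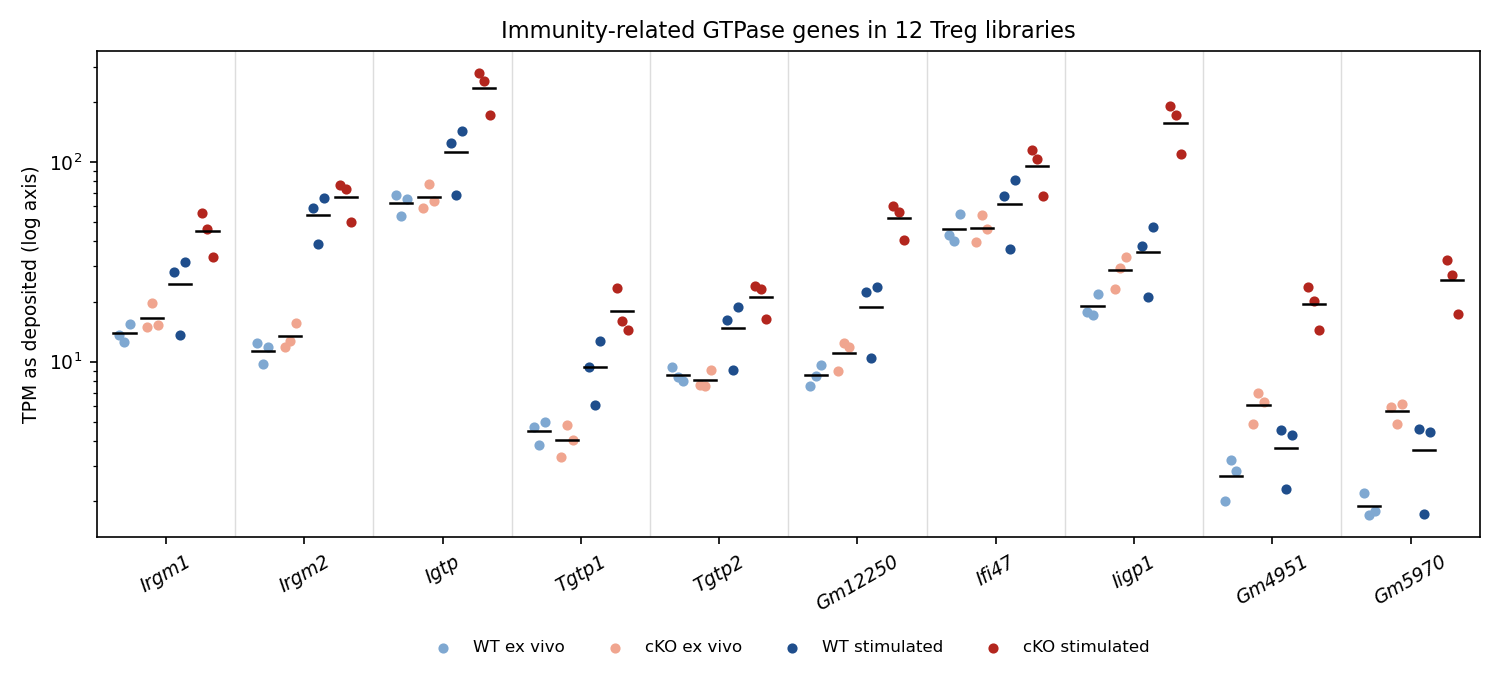
TPM as deposited (log axis) of the 10 family genes in each of the 12 libraries, coloured by group, with a black bar at the mean of 3 libraries. The cKO stimulated libraries hold the highest group mean for every gene, from 17.9 TPM for Tgtp1 to 235 TPM for Igtp.

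The members were chosen by family name with earlier results of these data in view, and which measured values entered that choice is not recorded. The levels, the genotype difference after stimulation and the interaction, which contains it, are therefore a description, without p-values. The p-values of the other comparisons come from the same libraries and may not be free of the choice either. All 10 members passed the filter of at least 5 TPM in the mean of some group. Gm4951 and Gm5970 passed only through the cKO groups and Tgtp1 only through the stimulated groups, while 7 members passed in both WT groups. Changes are differences of log2(scaled TPM + 1), with the SE from a limma fit to all 12 libraries and 13318 genes, and a gene was called when its Benjamini-Hochberg adjusted p was under 0.05.

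In ex vivo Treg without Ikaros, Gm5970 and Gm4951 of the chromosome 18 cluster lay above WT in every library, while no chromosome 11 member was called. The paper reported a larger effector and a smaller naive Treg pool in these cKO mice. The part of that shift in the genotype differences was not tested. Gm5970 stood at 2.20, 1.70 and 1.79 TPM in the WT ex vivo libraries and at 5.96, 4.88 and 6.13 in the cKO ex vivo libraries, with no overlap between the groups. The difference was 1.02 (SE 0.21), or 2.02-fold on this scale, and it rested on 19 to 94 reads per ex vivo library. Its limma adjusted p of 0.0184, the only one under 0.05 among the 10 members when 3.62% of all tested genes were called higher, supports nothing by itself, because Gm5970 entered the test through its level in cKO cells alone. With genes down to 1 TPM included the limma adjusted p was 0.266 and with all genes 0.326. The call was also lost without WT ex vivo 1, WT ex vivo 3, cKO ex vivo 1 or cKO ex vivo 3 (limma adjusted p 0.05, 0.0645, 0.0728 and 0.0756), and with quantile normalization (0.073). Gm4951, an Irga-like gene, stood at 2.02, 3.21 and 2.84 TPM in WT against 4.87, 6.96 and 6.29 in cKO, also without overlap, and differed by 0.73 (SE 0.20, limma adjusted p 0.0659), under the same limit of the filter. Summed, Gm4951 and Gm5970 changed by 0.97 (SE 0.19). Groups that did not overlap in this direction after scaling, as for these 2 members, made up 11.6% of all tested genes. In the opposite direction, Tgtp1 and Tgtp2 had every cKO library below every WT library after scaling, though not in TPM as deposited, as did 9.98% of all tested genes.

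Iigp1, the third gene of the cluster, gave 17.8, 17.1 and 21.8 TPM in WT and 23.2, 29.4 and 33.6 in cKO. The cKO libraries were above WT in TPM as deposited but overlapped them after scaling, and the change of 0.34 (SE 0.20) had an adjusted p of 0.443 (limma). The 7 chromosome 11 members changed by -0.31 (Tgtp1) to 0.11 (Gm12250), with a median of -0.14, and none was called higher or lower, the latter beside 1.67% of all tested genes. Igtp, for example, stood at 68.2, 53.4 and 65.3 TPM in WT against 58.8, 77.5 and 63.7 in cKO. Its change of -0.14 (SE 0.16) turned to 0.09 with the TPM as deposited. The median over all members was 0.01, beside -0.01 over all tested genes.

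After stimulation the whole family was higher in cKO than in WT Treg. The chromosome 18 members differed by 2.39 to 2.82 on the log2 scale and the chromosome 11 members by 0.59 to 1.78, ranges that do not meet. All 10 members were past the threshold, when 3.30% of all tested genes were called higher (3.63% lower), and nothing is read from this count because the contrast was known when the members were chosen. The median change of the members was 1.29, beside -0.03 over all tested genes. In bulk RNA a higher level can come from more RNA per cell or from more cells that hold it, and these cannot be told apart.

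Gm5970 stood at 4.62, 1.73 and 4.44 TPM in WT stimulated and at 32.2, 27.2 and 17.3 in cKO stimulated, a change of 2.82 (SE 0.21). Every cKO library was above every WT library. Iigp1, the effector Irga6, gave 38.0, 21.1 and 47.4 TPM in WT and 190, 171 and 110 in cKO, a change of 2.44 (SE 0.20). The groups were again apart. For Gm4951 the values were 4.52, 2.31 and 4.31 TPM in WT and 23.7, 20.2 and 14.4 in cKO, a change of 2.39 (SE 0.20). WT stimulated 2 was the lowest library of its group in all of these genes, and cKO stimulated 3 the lowest of the other.

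Among the effectors on chromosome 11, Gm12250 (Irgb10) differed most, from 22.3, 10.4 and 23.7 TPM in WT to 60.5, 55.9 and 40.7 in cKO, by 1.78 (SE 0.21). Tgtp1 gave 9.45, 6.07 and 12.7 TPM in WT against 23.5, 16.0 and 14.4 in cKO, by 1.16 (SE 0.15). Its near copy Tgtp2 gave 16.2, 9.08 and 18.9 against 23.8, 23.3 and 16.4 TPM, which overlap as deposited, by 0.81 (SE 0.16). Reads of these copies are hard to assign. Their sum, which would not regain reads that went uncounted, differed by 1.00 (SE 0.14). Ifi47 (Irgd) stood at 67.6, 36.5 and 81.5 TPM in WT against 115, 104 and 67.3 in cKO, by 0.95 (SE 0.20). Its groups overlapped in TPM as deposited and were apart only after scaling.

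The regulatory members differed by 0.59 (Irgm2) to 1.39 (Igtp). Igtp stood at 125, 68.2 and 142 TPM in WT against 279, 253 and 172 in cKO, by 1.39 (SE 0.16). Irgm1 stood at 28.1, 13.5 and 31.6 against 55.4, 46.1 and 33.4 TPM, by 1.19 (SE 0.19). In both genes every cKO library exceeded every WT library. Irgm2 showed the smallest difference of the family, 59.0, 38.8 and 65.9 TPM against 76.9, 73.3 and 50.3, by 0.59 (SE 0.13). Its groups overlapped as deposited. In scaled TPM all 10 members had every cKO stimulated library above every WT stimulated library, as did 12.8% of tested genes, and 7 members did so in TPM as deposited. Both the scale and the filter matter here. Without rescaling 4 members were called and with genes down to 1 TPM included 3, Gm4951, Gm5970 and Iigp1 among them each time. Over all tested genes the calls were 306 and 52, against 923 in the main fit.

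**Figure D3:**
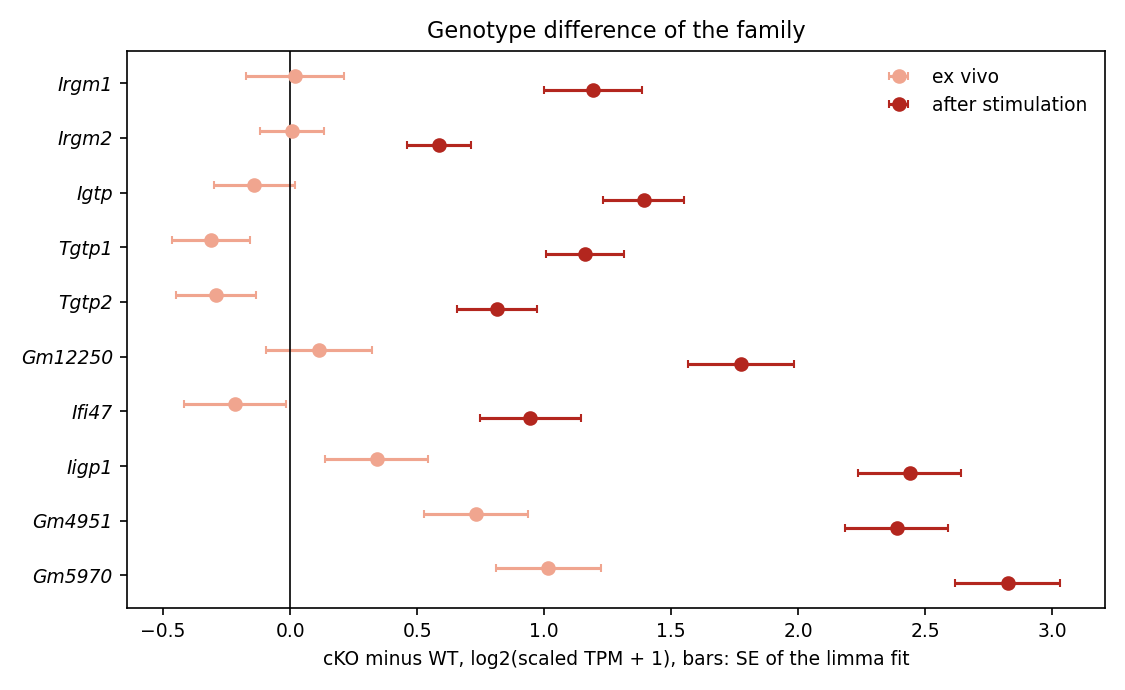
Difference of cKO from WT on the log2(scaled TPM + 1) scale for the 10 family genes, ex vivo (light) and after stimulation (dark), with bars of 1 SE. After stimulation the points run from 0.59 for Irgm2 to 2.82 for Gm5970, while ex vivo they run from -0.31 to 1.02.

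Part of the family was higher in WT Treg after 4 h of stimulation. The groups were cells taken directly and cells cultured with antibodies, so activation and culture cannot be told apart. The steepest rise was that of Irgm2, from 12.4, 9.74 and 11.8 TPM ex vivo to 59.0, 38.8 and 65.9 after 4 h. It rose by 1.96 (SE 0.13, limma adjusted p 2.72e-06), or 3.88-fold, and was called in each of the 22 alternative fits. Gm12250 rose by 0.79 (SE 0.21, adjusted p 0.0142) and Tgtp1 by 0.70 (SE 0.15, adjusted p 0.00539) in the same limma fit. Tgtp1 entered the test through its stimulated level, and with all genes included its limma adjusted p was 0.22. Smaller rises were called for Iigp1, by 0.62 (limma adjusted p 0.0388), Igtp, by 0.58 (adjusted p 0.0186), and Tgtp2, by 0.47 (adjusted p 0.0413). Leaving Tgtp1 aside for that reason, 5 of the other 9 members rose, when 12.7% of tested genes did, and the median of all 10 members was 0.54 beside 0.00 over all tested genes. Irgm1 (0.50, limma adjusted p 0.0693), Gm5970 (0.45, adjusted p 0.126), Gm4951 (0.17, adjusted p 0.568) and Ifi47 (0.16, adjusted p 0.583) were not called. Without WT ex vivo 1, WT stimulated 1 or WT stimulated 3 the calls fell to 2, Irgm2 and Tgtp1, and with genes down to 1 TPM included to 1, Irgm2.

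In cKO Treg stimulation raised the whole family. All 10 members were called, Tgtp1 also with all genes included (limma adjusted p 0.000576), when 17.3% of tested genes rose, with changes of 1.32 (Ifi47) to 2.72 (Iigp1) and a median of 2.14, beside -0.01 over all tested genes. Iigp1 went from 23.2, 29.4 and 33.6 TPM to 190, 171 and 110 and rose 6.57-fold (SE 0.20 on the log2 scale, limma adjusted p 4.60e-06). Irgm2 rose by 2.54 (SE 0.13, adjusted p 5.78e-07), from 11.9, 12.7 and 15.7 to 76.9, 73.3 and 50.3 TPM, in the same limma fit. For all 10 genes, every stimulated cKO library lay above every ex vivo cKO library, in TPM as deposited and after scaling. All calls held when each of the 12 libraries was left out in turn, and that of Ifi47 was lost when genes down to 1 TPM were included (adjusted p up to 0.0756 over the limma alternatives). These cells share the cKO stimulated libraries with the genotype comparison, so the rise is no separate evidence for that difference.

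The rise with stimulation was steeper in cKO than in WT for every member, by 0.58 (Irgm2, SE 0.18) to 2.10 (Iigp1, SE 0.29) on the log2 scale. Between these lay Gm5970 (1.81, SE 0.29), Gm12250 (1.66, SE 0.29), Gm4951 (1.66, SE 0.29), Igtp (1.53, SE 0.23), Tgtp1 (1.47, SE 0.22), Irgm1 (1.18, SE 0.27), Ifi47 (1.16, SE 0.28) and Tgtp2 (1.10, SE 0.22). In the fit 7 members were past the threshold, when 0.451% of all tested genes were called higher, and nothing is read from this count for the reason given above. It was 0 without rescaling and with genes down to 1 TPM included, and 3 without cKO stimulated 1. Over all tested genes these fits called 67, 0 and 56, against 147 in the main fit.

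**Figure D4:**
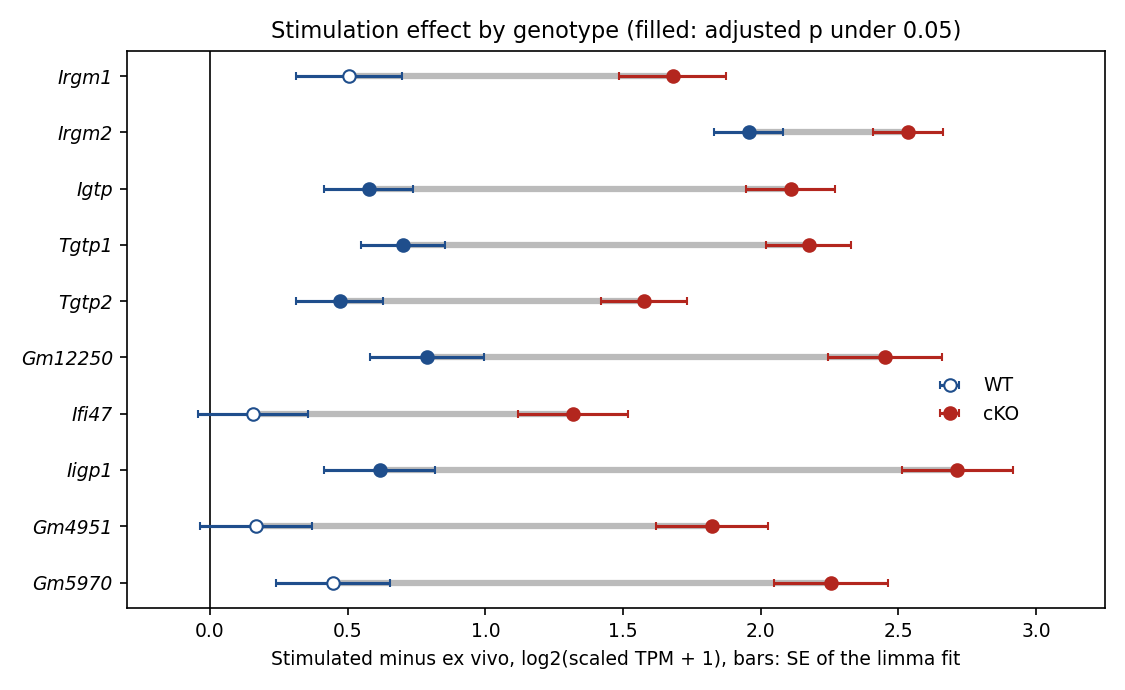
Change with 4 h of stimulation on the log2(scaled TPM + 1) scale for the 10 family genes in WT (blue) and cKO (red) Treg, with bars of 1 SE; filled points had an adjusted p under 0.05. Red points lie to the right of blue points for all 10 genes, and Irgm2 has the narrowest gap, 0.58.

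Members moved together across the 12 libraries. Pearson r of log2(scaled TPM + 1) between members had a median of 0.927 over 45 pairs, with a range of 0.629 to 0.990. These are descriptions, since libraries of a group share their treatment. The member most like Irgm1 was Gm12250 (r = 0.990), and Irgm1 was in turn the member most like Igtp (0.990), Gm12250 and Ifi47 (0.973). Gm4951 and Gm5970, which overlap, were nearest to each other (0.978). Tgtp1 and Tgtp2 were each nearest to Igtp (0.982 and 0.968), Iigp1 to Gm12250 (0.984) and Irgm2 to Tgtp1 (0.922). Outside the family, the 5 genes closest to the members' mean profile were Gbp5 and Gbp2 (each 0.994), which encode interferon-induced guanylate-binding proteins, Wars (0.981), the cytosolic tryptophanyl-tRNA synthetase, Samhd1 (0.977), a dNTP hydrolase, and Rhoq (0.974), a small GTPase.

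The interferon gamma pathway upstream of the family was described through 11 genes, all tested. Like the members, this list was chosen with earlier results known, so its counts and p-values are no independent support for a pattern. The ligand Ifng was higher in cKO than in WT Treg in both conditions, and it fell with stimulation in both genotypes. Ifng stood ex vivo at 19.4, 20.8 and 22.6 TPM in WT against 56.0, 80.7 and 102 in cKO, without overlap, and was higher by 1.60 (SE 0.26, limma adjusted p 0.00616). Stimulated libraries had 5.14, 2.58 and 5.65 TPM in WT against 41.8, 21.5 and 16.0 in cKO, higher by 2.54 (SE 0.26, limma adjusted p 0.000325). With stimulation it fell by 2.24 in WT (adjusted p 0.000106) and by 1.30 in cKO (adjusted p 0.00277) in the same limma fit. The group with most Ifng RNA was cKO ex vivo, and the group with the highest family level was cKO stimulated. These are RNA levels only. The paper reported that stimulated cKO Treg, but not WT Treg, could secrete interferon gamma protein. A link between Ifng and the family was not tested.

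Of the receptor genes, Ifngr1 was lower in cKO ex vivo, by -0.97 (SE 0.15, limma adjusted p 0.00498), at 108 to 126 against 155 to 268 TPM. It rose with stimulation in cKO by 1.02 (limma adjusted p 0.000403). Among transcription factors, Irf1 was higher in cKO after stimulation by 0.85 (SE 0.11, adjusted p 0.00151) and Irf8 by 1.29 (SE 0.16, adjusted p 0.00105), both by limma. With stimulation Irf1 fell by 1.07 in WT (limma adjusted p 5.68e-05) and by 0.32 in cKO (adjusted p 0.0405). The latter direction depended on the scaling, since quantile normalization gave 0.39 (limma adjusted p 0.0151), and the call held in 12 of 22 alternative fits. Socs1, a feedback inhibitor of cytokine signalling, was at 68.7, 35.9 and 61.8 TPM in WT stimulated and at 293, 213 and 129 in cKO stimulated. Socs1 was higher by 2.18 (SE 0.22, limma adjusted p 0.000285). Its interaction was 2.04 (SE 0.31, limma adjusted p 0.0137, and up to 0.536 over the alternative fits). In all, 4 of the 11 genes were higher and 0 lower after stimulation (3.30% and 3.63% of all tested genes), with a median of 0.05, and the changes of the other 7 ran from -0.39 (Jak1) to 0.24 (Irf9). Ex vivo 1 was higher and 1 lower (3.62% and 1.67% of all tested genes), and in WT stimulation lowered 6 and raised 0 (19.3% and 12.7% of all tested genes), while in cKO it lowered 5 and raised 3 (26.5% and 17.3%). Including genes down to 1 TPM or all genes ended the limma calls of Ifng ex vivo (adjusted p up to 0.1), Ifngr1 (up to 0.386 ex vivo and 0.328 in cKO), Irf1 and Irf8 after stimulation (up to 0.368 and 0.165) and Socs1 (up to 0.0663).

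**Figure D5:**
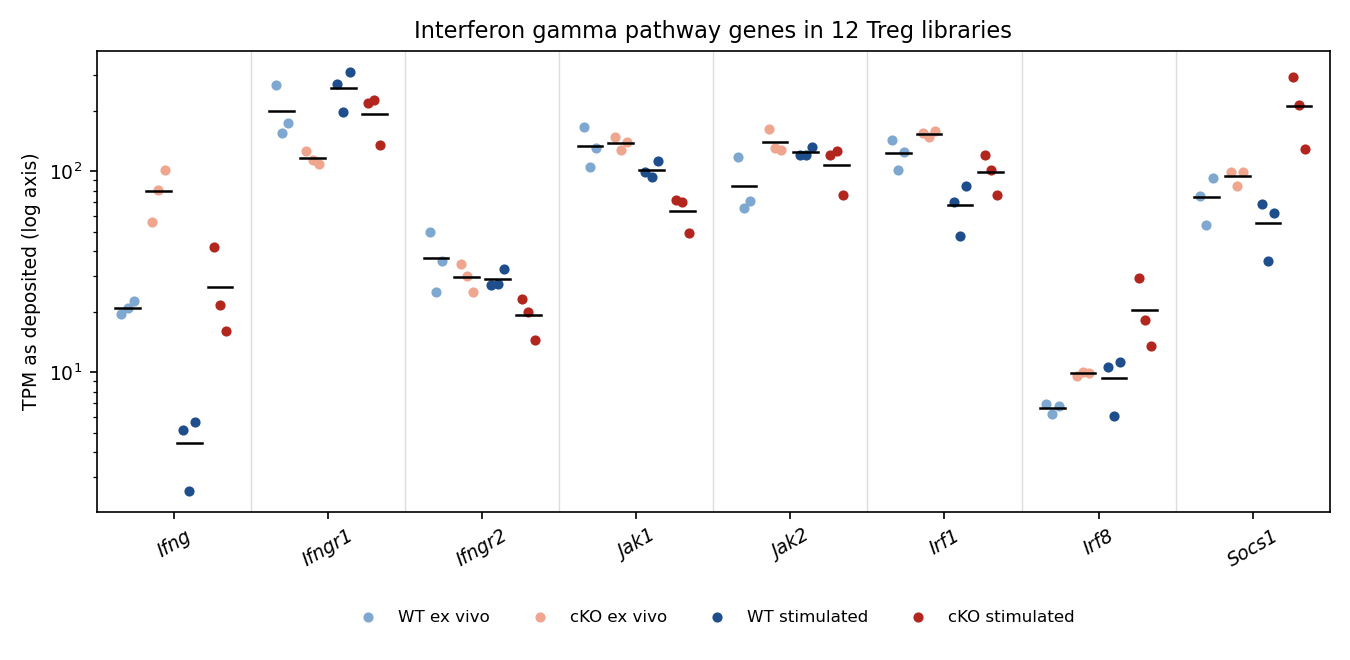
TPM as deposited (log axis) of 8 interferon gamma pathway genes in each of the 12 libraries, coloured by group, with a black bar at the mean of 3 libraries. Ifng is highest in cKO ex vivo (79.5 TPM) and lowest in WT stimulated (4.45 TPM), whereas Socs1 is highest in cKO stimulated (212 TPM).

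Other gene groups were set beside the family. The lists in this paragraph and the next were also chosen with earlier results known, so their counts and p-values are no independent support. Of the 6 further IRG-like gene models, 4 were tested. After stimulation 1 was higher and 1 lower in cKO (3.30% and 3.63% of all tested genes). Ex vivo 2 were higher and 0 lower (3.62% and 1.67%). The model 9930111J21Rik1 was not called, with -0.03 ex vivo and -0.002 after stimulation. F830016B08Rik, which lies between Gm5970 and Iigp1 on chromosome 18 (60453034 to 60462670, plus strand), followed its neighbours. Its level ex vivo was 2.40 ± 0.40 TPM (WT) and 5.42 ± 0.50 (cKO), and that of stimulated cells 3.98 ± 1.13 (WT) and 14.4 ± 4.07 (cKO). Its differences were 0.73 ex vivo (SE 0.17) and 1.87 after stimulation (SE 0.17). It too passed the filter only through the cKO groups, and with all genes included the limma adjusted p was 0.335 ex vivo and 0.0175 after stimulation. By contrast 9930111J21Rik2, placed between Tgtp1 and Tgtp2, was lower in cKO after stimulation by -0.57 (limma adjusted p 0.0217, called in 15 of 22 alternative fits), although it shares 54.64% of its 51-base windows with the copy 9930111J21Rik1. Irgq, a family relative on chromosome 7, was higher in cKO ex vivo by 0.71 (limma adjusted p 0.00157). This call held in 20 of 22 alternative fits (limma adjusted p up to 0.175). The Irgq interaction was negative, -0.74 (limma adjusted p 0.0213), called in 12 of 21 alternative fits with an adjusted p of up to 0.445.

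Guanylate-binding proteins, a second interferon-induced GTPase family that works beside IRG proteins at vacuoles, were higher in cKO after stimulation in 8 of 9 tested genes (median 0.96), beside 3.30% of all tested genes, and 2 of their 9 rose and 4 fell with stimulation in WT (12.7% and 19.3% of all tested genes), against 6 and 1 in cKO (17.3% and 26.5%). Gbp2 was higher by 2.00, Gbp5 by 1.63 and Gbp6 by 1.45 (limma adjusted p 0.000397, 0.000218 and 0.000356). Of 13 tested genes of the type I interferon pathway and response, 4 were higher and 1 lower in cKO after stimulation. Over all tested genes these shares were 3.30% and 3.63%. Higher were Stat2 (0.94), Oas1a (1.23), Usp18 (1.08) and Irf7 (0.67), and Ifnar1 was lower (-0.72). Their limma adjusted p were 0.000561, 0.00375, 0.00583, 0.0447 and 0.0105 in this order. The call of Irf7 held in 11 of 22 alternative fits (limma adjusted p up to 0.556). With genes down to 1 TPM or all genes included, the calls of Stat2 (limma adjusted p up to 0.306), Usp18 (0.293), Oas1a (0.0797) and Ifnar1 (0.177) were lost, as were those of Gbp2, Gbp5 and Gbp6 (0.0617, 0.0617 and 0.067). Irf7 and Ifnar1 are named after their values were seen. In WT, stimulation lowered 10 of these 13 genes and raised 0, when 19.3% of all tested genes fell and 12.7% rose. In cKO it lowered 3 and raised 2, when 26.5% of all tested genes fell and 17.3% rose. Of 10 autophagy conjugation genes, whose products place IRG proteins on vacuoles, 1 was lower in cKO after stimulation (Atg12, by -0.36, limma adjusted p 0.0443) and 0 were higher (3.63% and 3.30% of all tested genes), with a median of -0.10 beside -0.03 over all tested genes. Ex vivo 1 of them was higher in cKO (Gabarapl1, by 0.47, limma adjusted p 0.0382), beside 3.62% of all tested genes. Both calls were fragile, since Atg12 was called in 6 of 22 alternative fits (limma adjusted p up to 0.293) and Gabarapl1 in 10 of 22 (up to 0.814).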

How the data were processed

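Total RNA of sorted Treg was depleted of ribosomal RNA, and strand-specific libraries were sequenced as 51 bp paired ends, per the labels and the study's methods. The authors aligned the reads to mm9 with STAR 2.6.0c and counted them by strand on Ensembl v67 exons with HTSeq 0.6.1 (versions from the submitters' processing notes). The expression signal that the authors deposited is in TPM, and sums to 1000000 in each of the 12 libraries over 36222 genes, and a log2 value to which 1 read had been added. Whole reads recovered from these log2 values were whole for 99.9977% of values (tolerance 0.01) and served for depth and for 1 alternative. Depth was 8208659 to 20247649 reads per library. Without molecular identifiers, counting error understates the error. A second deposited table, of log2 fold changes, F scores, p-values and FDR of the authors' own comparisons, was not used.

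The fit took the 13318 genes that reached a mean of 5 TPM in some group. Scaling between libraries used trimmed means of M-values over these genes (30% of M and 5% of A trimmed, own code). A pseudocount of 1 was added before log2, and limma 3.58.1 (R 4.3.3; eBayes with trend) was fitted to all 12 libraries with group (4 levels) as its term. The 5 comparisons covered each genotype effect, each stimulation effect and their interaction. P-values are two-sided, Benjamini-Hochberg adjusted over all tested genes, and fold changes on this scale understate those of low genes. Each group had 3 libraries, of separate mice per the study's methods. The fit was tested on simulated data with known changes. Between replicates, chi-square per degree of freedom was 4.51 to 48.2 over genes with at least 10 reads, so none were duplicates.

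The named genes were the 10 members, Ikzf1, 11 interferon gamma pathway genes (a further gene of that list is not reported here), the 5 genes and the member nearest in profile, and from other lists up to 3 genes of smallest adjusted p per comparison. The members and lists were chosen with earlier results of these data known. Alternatives were other filters, pseudocounts and scalings, a replicate block, a fit to the compared groups only, limma voom on recovered reads, each library left out, and sums of overlapping or near-identical members. Positions came from GENCODE vM1 (mm9) and upstream sequences from RefSeq (GRCm38.p6), whose coordinates were not mixed. Files were read with Python 3.11.15.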

Additional observations from a re-analysis of the deposited data

Results flagged for a closer look

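Results were listed here where the change with stimulation differed between WT and cKO Treg by the interaction term of the limma fit (adjusted p under 0.05). The family genes are left out, since their interaction contains the genotype difference after stimulation. The lists were also chosen with earlier results known, so the calls below are no independent support. Among the pathway and list genes the change was more upward in cKO for Socs1 (2.04 on the log2 scale), a feedback inhibitor of cytokine signalling, Gbp2 (2.00), Usp18 (1.75), which encodes the ISG15 protease, Gbp6 (1.65), Gbp5 (1.40) and Gbp10 (1.32). Gbp10, the fourth of its list by adjusted p, is named after its value was seen and was called in 8 of 21 alternative fits. Irgq, the relative on chromosome 7, differed in the opposite direction (-0.74). None of these 7 calls held with genes down to 1 TPM included, where the interaction was called by limma for 0 of the 33873 genes then tested and 2468 had an unadjusted p under 0.05. Groups of 3 libraries are too small for a test of single outlying libraries.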

How the results depend on the processing

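The number of members called changed with the filter on low levels, with the scaling and with single libraries, and the interaction counts are a description only. Including genes down to 1 TPM, or all genes, brought the members called to 0 ex vivo, 3 for the stimulated genotype difference, 1 for the stimulation of WT and 0 for the interaction. With genes down to 1 TPM the calls over all tested genes fell too. They went from 704 of 13318 to 57 of 33873 ex vivo and from 923 to 52 after stimulation. For stimulation in WT they went from 4262 to 1731, and for the interaction from 147 to 0. The TPM as deposited gave 4 members after stimulation, 3 for stimulation in WT and 0 for the interaction. Over all tested genes it called 306, 1943 and 67 in the same order. Unscaled, the median of all tested genes shifted by 0.208 ex vivo, -0.298 after stimulation, 0.183 for stimulation in WT, -0.309 in cKO and -0.517 for the interaction, so changes are relative to that median. Voom on recovered reads called 2 members ex vivo, a fit to only the 2 groups compared called 2 for stimulation in WT, and a pseudocount of 0.1 TPM called 4 for the interaction. With the replicate numbers as a block the interaction called 4 members, with voom 9 and with quantile normalization 10. Over all tested genes these fits called 65, 395 and 392 for the interaction, and voom called 1203 ex vivo. The numbers are not stated to pair libraries, same-numbered libraries correlated by -0.208 to 0.257 in their deviations, and 6 of 12 correlated best with their own number. Leaving out each library in turn gave 0 to 2 members ex vivo, 8 to 10 after stimulation, 2 to 8 for stimulation in WT, 10 in each fit for stimulation in cKO and 3 to 6 for the interaction. The lowest count for the interaction, 3, came without cKO stimulated 1.

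Among the values printed, directions turned for those that were not called, and for Irf1 with stimulation in cKO, which was called at -0.32 and turned to 0.39 with quantile normalization. For stimulation in WT, Gm4951 (0.17) turned to -0.017 with a filter of 1 TPM, -0.023 with no filter and -0.17 with quantile normalization, and ran from -0.054 (without WT ex vivo 1) to 0.35 over single libraries left out, and Ifi47 (0.16) turned to -0.090 with a filter of 1 TPM and -0.10 with no filter. For the genotype effect ex vivo, Ifi47 turned to 0.017 and Igtp to 0.095 with TPM as deposited. Irgm2 turned to -0.0057 with no filter, -0.0068 with median of ratios scaling and -0.0038 with quantile normalization. With single libraries left out, Irgm2 ran from -0.104 (without cKO ex vivo 3) to 0.077, Irgm1 from -0.097 (without WT ex vivo 1) to 0.088 and Gm12250 from -0.064 (without WT ex vivo 1) to 0.210. For the genotype effect after stimulation, Irf9 turned to -0.049 with a filter of 1 TPM, -0.056 with no filter and -0.038 with TPM as deposited. The cause of these changes was not tested. Depth limits Gm5970 most, with 19 to 274 reads per library.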
